A study of Mus musculus with 15 samples.

Results

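Interferon-stimulated genes are the genes that a cell switches on when it senses interferon, and 34 of them are followed here across bone marrow libraries from mice of an MLL-AF9 leukaemia model. They were taken from a list of well-known members of the response: transcription factors, antiviral effectors, the ISG15 system, RNA sensors, interferon-inducible GTPases, genes of peptide processing for MHC class I, a chemokine, ADP-ribosyltransferases and 3 others. Of the 34, 33 were matched to the deposited table, out of 20453 genes in all, and Mx1 was not analysed here. All 33 passed the filter on low counts and were tested among 14553 genes.

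MLL-AF9 is a human fusion gene found in acute myeloid leukaemia. Per the labels' protocols its human cDNA was placed in A2Lox-cre targeting cells, selected clones gave chimeric transgenic lines, the chimeras were crossed back to C57BL/6, and double heterozygous females were used. The labels give every library as bone marrow of C57BL/6, and the protocols as depleted of cells with Cd5, Cd11b, B220, Gr-1 or Ter119 and then sorted either as granulocyte-macrophage progenitors (GMP) or as long-term haematopoietic stem cells (LT-HSC). The groups were LTearly (4 libraries), LTlate (3), BMTGMP (3) and wtGMP (4). The label texts do not spell out these names, so the gate, induction, transplantation and age of each group are not given, and wtGMP was read as wild-type GMP. The first 3 are called the MLL-AF9 groups, and genotype and any difference in the sorted cell type cannot be told apart between them and wtGMP. A further library, M2grLT3, is titled LTearly but its column is named LTlate, and it entered no comparison. The titles of the MLL-AF9 libraries carry further marks (such as M2grD2) that are not explained. Of these, grD2 is shared by LTearly replicate 1 and LTlate replicate 3, grLT3 by LTearly replicate 3, LTlate replicate 2 and M2grLT3, and grV by BMTGMP replicates 1 and 2, and they entered no fit. No label says that the libraries of a group came from separate animals, so the p-values measure only the spread between these libraries, which may be technical.

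Type I interferons signal through the receptor chains Ifnar1 and Ifnar2 to a complex with Stat2 and Irf9 that binds the interferon-stimulated response element (ISRE). Type II interferon signals through Ifngr1 and Ifngr2, acts on genes with a gamma-activated site (GAS), and induces Irf1, which binds ISRE-like sequences in turn. In blood formation, interferons are known to drive resting stem cells into division, and guanylate-binding proteins and immunity-related GTPases are among the genes most strongly induced by type II interferon in myeloid cells.

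Promoters of 6 members show the letters that this pathway reads. They are shown because the first 4 belong to genes whose highest level among the grouped libraries was in LTearly replicate 3, while Ifit1 and Isg15 were highest elsewhere. For Isg15 this was narrow, with 8.56 CPM in BMTGMP replicate 2 and 8.07 in LTearly replicate 3. Only windows with a match are printed, and a second Irf1 window without one is left out. Irf7, Irf9, Ifi47, Oasl2, Tap1 and Xaf1 were also highest in LTearly replicate 3, and their windows held neither match. Irf1, Ifit1 and Isg15 were picked for display after their values were seen. Each line is the 120 bases before the start, from a RefSeq promoter window (250 bases before to 50 after the start) on GRCm38.p6, read 5′ to 3′ in the direction of transcription. Capitals mark an ISRE-like match (GAAA, any 2 bases, then GAAA again, which reads as TTTC, 2 bases and TTTC where it lies on the other strand) or a GAS-like match (TTCNNNGAA, which reads alike on both strands).
Gbp2 chr3:142620543-142620662 plus strand: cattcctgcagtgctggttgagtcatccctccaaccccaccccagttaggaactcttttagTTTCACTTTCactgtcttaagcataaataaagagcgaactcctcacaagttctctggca
Irf1 chr11:53769894-53770013 plus strand: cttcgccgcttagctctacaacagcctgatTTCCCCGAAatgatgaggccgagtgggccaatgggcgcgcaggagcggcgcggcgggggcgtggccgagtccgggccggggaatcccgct
Igtp chr11:58199436-58199555 plus strand: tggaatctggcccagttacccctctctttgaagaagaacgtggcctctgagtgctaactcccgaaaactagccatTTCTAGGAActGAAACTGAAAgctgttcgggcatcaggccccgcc
Irgm2 chr11:58214857-58214976 plus strand: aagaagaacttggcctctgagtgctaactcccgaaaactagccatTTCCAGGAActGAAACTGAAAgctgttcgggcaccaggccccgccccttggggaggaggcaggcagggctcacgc
Ifit1 chr19:34640769-34640888 plus strand: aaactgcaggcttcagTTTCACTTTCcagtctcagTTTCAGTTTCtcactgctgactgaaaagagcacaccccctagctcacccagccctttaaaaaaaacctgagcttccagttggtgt
Isg15 chr4:156200819-156200938 minus strand: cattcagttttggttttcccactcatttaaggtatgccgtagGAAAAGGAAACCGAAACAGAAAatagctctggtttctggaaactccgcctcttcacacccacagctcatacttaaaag

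Of the 33 members, 25 had a promoter window in the RefSeq table. An ISRE-like match was found in 14 of the 25 (56.0%), against 3.99% of 27025 genes with a window. GAS-like letters occurred in 8 of 25 (32.0%), against 9.55% of those genes, and both together in 5 (20.0%), against 0.54%. Among the inducible GTPases 5 of 6 had an ISRE-like match and 2 of 6 a GAS-like one. Those 2 were Igtp and Irgm2, also among the 5 with both. Their printed lines are nearly alike around the matches, so they are not independent. In Irf1 the GAS-like match lay between -90 and -82 from the start, and in Gbp2 the ISRE-like match lay between -59 and -50. In the Isg15 line 3 ISRE-like matches overlap each other. None of the 3 MHC class I peptide-processing genes held an ISRE-like match in its window, and the windows of Psmb9 and Tap1 face opposite ways and share 275 bases. A match is a description of letters and not a site shown to be bound.

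Levels are given as CPM, the counts of a gene scaled to a common total of counts on genes, after scaling of the libraries. Fold changes are on the log2 scale with their SE, and adjusted p-values come from edgeR's quasi-likelihood test (2-sided, Benjamini-Hochberg over all genes tested). A gene is called where the adjusted p is under 0.05. Gene totals ran from 2469869 to 15093477 counts per library, lowest in LTearly for its replicate 3 (2696288, where 1 count is 0.367 CPM). The levels set genes beside themselves across libraries and not beside each other, since they are not divided by length. Markers of the sorted cells differed between the groups. The summed level of 11 GMP markers was 1885 to 7131 CPM in LTearly, 2255 to 2662 in LTlate, 8580 to 12350 in BMTGMP and 19682 to 22996 in wtGMP. Most of the wtGMP sum was Mpo (16019 to 19186 CPM), and in LTearly over wtGMP 7 of the 11 fell while Csf2ra and Cebpe rose (1.30 ± 0.16 and 2.18 ± 0.43 on the log2 scale, adjusted p = 6.32e-07 and 0.00243). The sum of 8 LT-HSC markers was 54.9 to 191 CPM in LTearly, 87.8 to 153 in LTlate, 205 to 315 in BMTGMP and 21.2 to 36.6 in wtGMP. Nearly all of the BMTGMP sum was Meis1 (197 to 289.5 CPM). Meis1 rose over wtGMP in LTearly, LTlate and BMTGMP by 2.14 ± 0.42, 2.35 ± 0.44 and 3.30 ± 0.45 on the log2 scale (adjusted p = 0.0021, 0.0026 and 0.000297). Mecom was above wtGMP in all 4 LTearly libraries without passing the test (4.94 ± 1.80, adjusted p = 0.0744). It was at 0, 0 and 5.74 CPM in LTlate and at most 0.837 CPM in BMTGMP. Slamf1, which encodes the Cd150 of the gate, was at 0 in 3 of 4 LTearly, in all 3 LTlate and in all wtGMP libraries. In BMTGMP it was at 0, 0 and 0.419 CPM. Itgam, which encodes the Cd11b of the depletion, was at 865 to 1713 CPM in LTearly, 1074 to 1651 in LTlate, 413.5 to 539 in BMTGMP and 31.1 to 76.3 in wtGMP, and rose by 4.54 ± 0.27 in LTearly over wtGMP (adjusted p = 4.33e-10). The sum of 12 late neutrophil markers was 13021 to 26321 CPM in LTearly, 5253 to 9439 in LTlate, 1433 to 7049 in BMTGMP and 58.4 to 154 in wtGMP. The part of these cell types in the results below was not tested, and in bulk RNA fewer cells of a type and less RNA per cell cannot be told apart.

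In LTearly, 3 of the 33 interferon-stimulated genes were higher than in wtGMP and 0 were lower: Zbp1, Irf7 and Irgm2. Over all genes tested, 11.2% were called higher and 8.96% lower, so the members' share was no larger than the background. Their median log2 fold change was 1.56, against 0.22 over all genes, and 24 of 33 had a positive fold change. DESeq2 called 8 members higher and 0 lower, where it called 16% and 10% of all genes with an adjusted p. It gave no adjusted p for Gbp2, Irgm1 and Cxcl10, here or in the other comparisons. An unadjusted p under 0.05 was found for 11 members, and for 33.5% of all genes. The calls changed with the libraries left out: without LTearly replicate 3, edgeR called 0 members higher and 2 lower (Gbp3 and Psmb9), and the median was 0.48, against 0.19 over all genes. Of 14541 genes, that fit called 1450 higher and 1147 lower. The number of members called higher was 2 without LTearly replicate 1, 6 without replicate 2, 8 without replicate 4, and 1 without wtGMP replicate 2 or 4. Over all genes, 1410 of 14287, 1457 of 14578, 1667 of 13671, 1444 of 14742 and 1347 of 14872 were called higher, in that order. The heat map of all members by library shows this column.

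**Figure D1:**
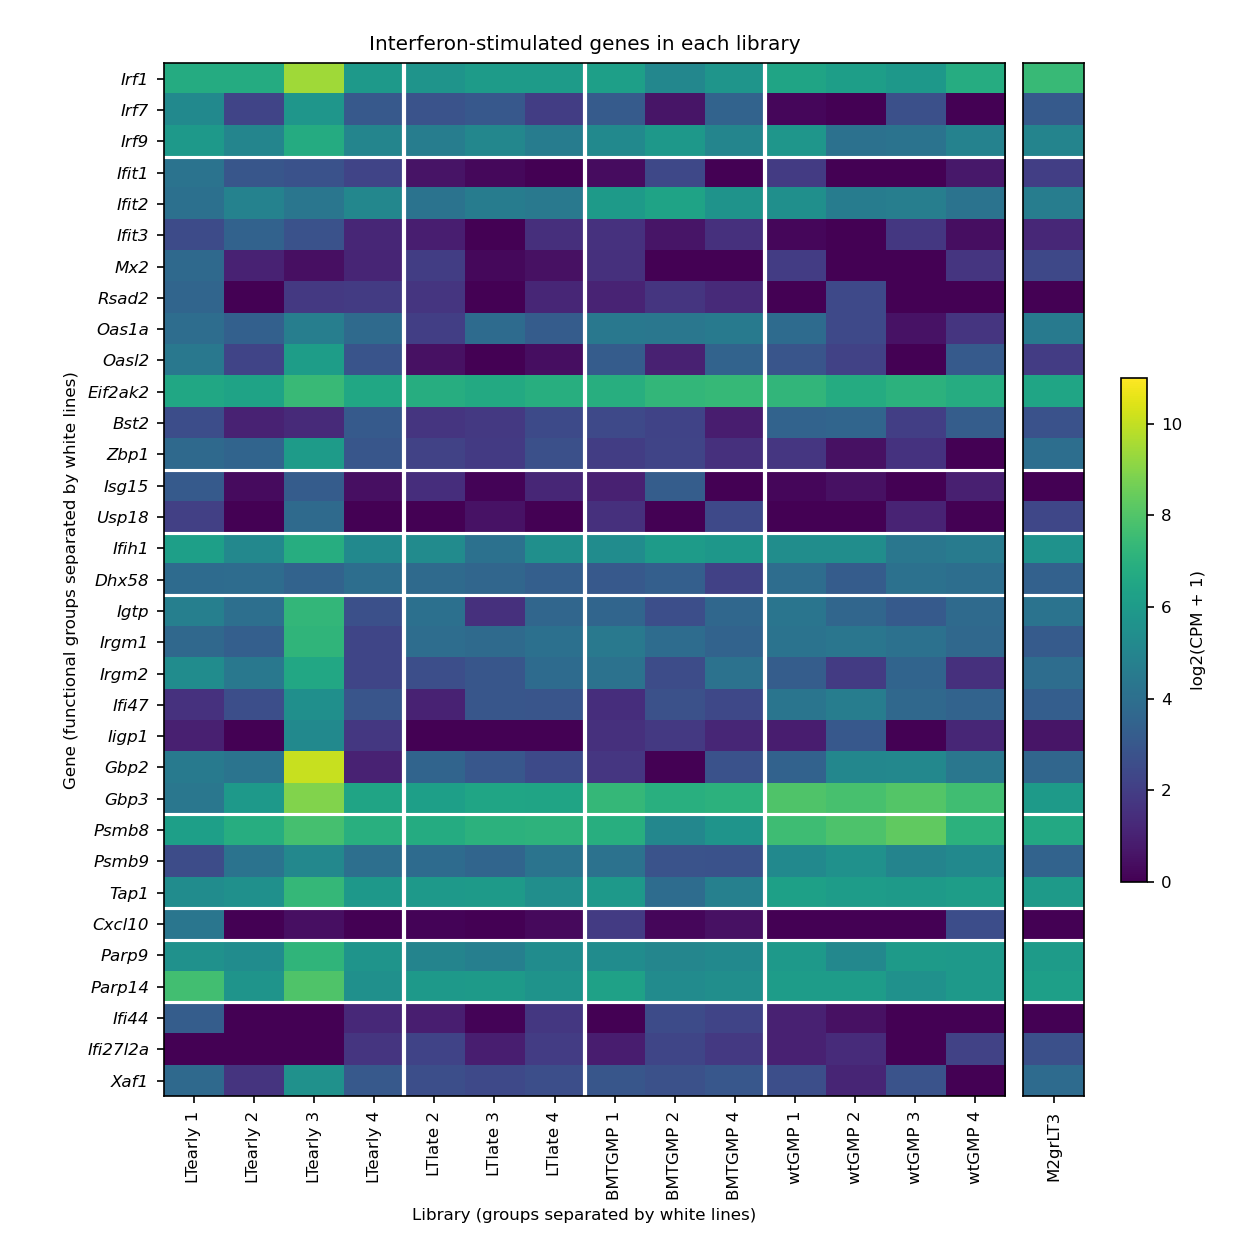
Level of each of the 33 genes (one line each, grouped by function) in each library (one column each), as log2(CPM + 1) in colour, with the unassigned library M2grLT3 set apart on the right. LTearly replicate 3 is the brightest column for Irf1, Gbp2, Gbp3 and the other GTPases, and Iigp1 is at 0 in all 3 LTlate libraries.

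Replicate 3 of LTearly held the highest level among the 14 libraries for 20 of the 33 members (60.6%), against 14.8% of all genes tested. All 7 GTPases peaked in that library, at 2.24 to 5.89 log2 units above the median of the other 3 LTearly libraries. All 3 transcription factors and both ADP-ribosyltransferases also peaked there, as did 4 of 10 antiviral effectors, 1 of 2 RNA sensors, 1 of 2 genes of the ISG15 system (3.71 and 5.52 log2 units above) and 1 of 3 peptide-processing genes. LTearly replicate 1 held the highest level of 5 members (15.2%, against 14.5% of all genes), namely Ifit1, Mx2, Rsad2, Cxcl10 and Ifi44. Within LTearly the median member stood 1.8 log2 units above the median of the other libraries in replicate 3, 0.39 above in replicate 1, and -0.47 and -0.73 away in replicates 2 and 4. Over all genes that shift was between -0.02 and 0.08. In replicate 3, 15 members stood more than 4-fold above, as did 8.91% of all genes.

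**Figure D2:**
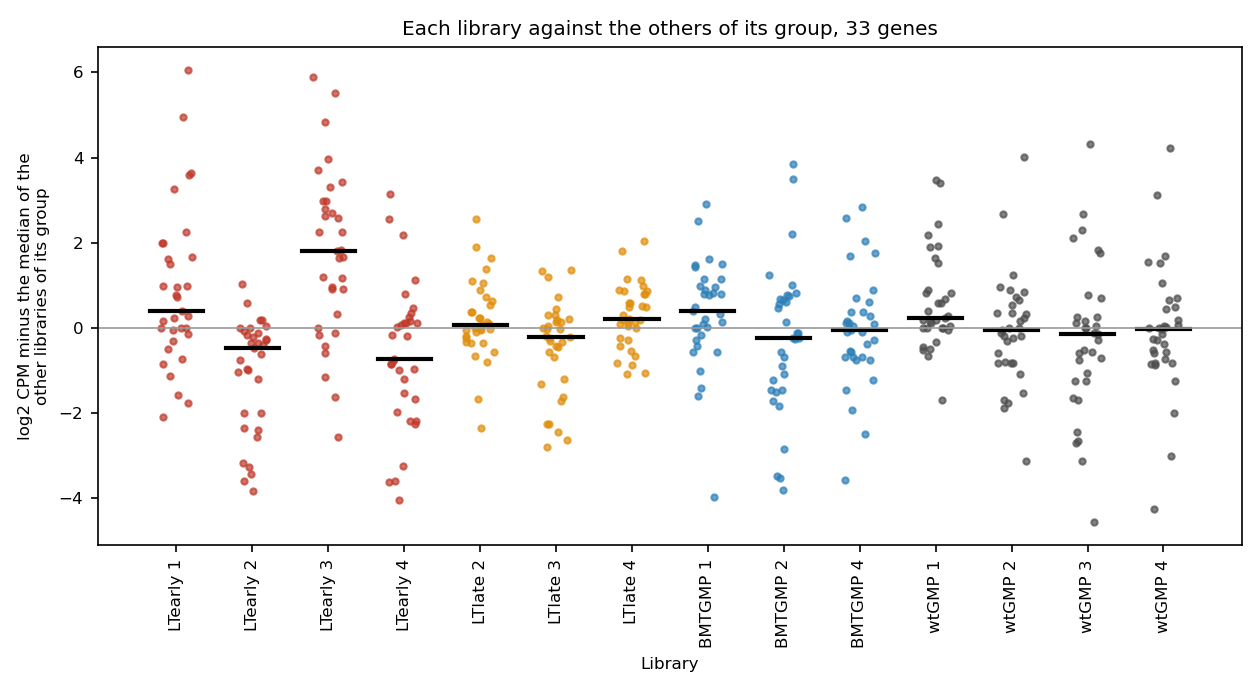
Each point is 1 of the 33 genes in 1 library, placed by its log2 CPM minus the median of the other libraries of its group, and the black bars are medians. The bar of LTearly replicate 3 lies at 1.8, while the bars of the LTlate, BMTGMP and wtGMP libraries lie between -0.24 and 0.39.

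The spread within groups was measured as the SD of log2 CPM. Its median over the members was 1.569 in LTearly, 0.505 in LTlate, 0.829 in BMTGMP and 0.816 in wtGMP, against 0.741, 0.381, 0.507 and 0.52 over all genes in the same groups. Members with an SD over 1 numbered 23, 8, 11 and 15 of 33 in that order, and over all genes the shares were 40%, 21.8%, 29.3% and 31.5%. Without LTearly replicate 3 the median SD in LTearly was 1.105, against 0.626 over all genes.

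Gbp2, a guanylate-binding protein that attacks the compartments of intracellular pathogens, had the widest spread. Its level was 21.8, 17.9, 1075 and 1.056 CPM in the LTearly libraries, 10.7, 6.88 and 4.59 in LTlate, 2.33, 0 and 5.86 in BMTGMP, and 9.90, 32.7, 33.9 and 19.6 in wtGMP. LTearly replicate 3 was 31.7-fold above the highest of the other 13 libraries, LTearly replicate 4 was below all of wtGMP, and the LTearly and wtGMP groups overlapped. The log2 fold change of LTearly over wtGMP was 3.55 ± 1.65 (SE, adjusted p = 0.163), and LTlate and BMTGMP gave -1.69 ± 1.76 (adjusted p = 0.649) and -3.24 ± 2.03 (adjusted p = 0.43).

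Gbp3, of the same family, was at 19.8, 61.5, 485.5 and 85.4 CPM in LTearly, at 73.7, 87.8 and 85.2 in LTlate, at 161, 123 and 135 in BMTGMP and at 252, 222, 266 and 194 in wtGMP. It was lower in every LTlate and BMTGMP library than in every wtGMP library, and 3 of the 4 LTearly libraries also lay below wtGMP while replicate 3 lay above all others. The log2 fold change was -0.53 ± 0.73 in LTearly (adjusted p = 0.693), -1.50 ± 0.82 in LTlate (adjusted p = 0.296) and -0.74 ± 0.80 in BMTGMP (adjusted p = 0.711). Without LTearly replicate 3 the fold change of LTearly was -2.06 with an adjusted p of 0.000218.

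The immunity-related GTPases act on the vacuoles of intracellular pathogens, and Irgm1 and Irgm2 are among those that regulate the others. Irgm1 stood at 12.0, 9.06, 146 and 3.99 CPM in LTearly, at 14.1, 13.1 and 15.8 in LTlate, at 21.0, 13.6 and 10.5 in BMTGMP and at 17.5, 18.9, 16.2 and 12.0 in wtGMP. Replicate 3 was 6.93-fold above the highest of the other libraries, whose levels all lay between 3.99 and 21.0 CPM. Its fold change over wtGMP was 1.38 ± 0.90 on the log2 scale (adjusted p = 0.324), and the other 3 LTearly libraries were all below the lowest wtGMP library, replicate 1 only narrowly.

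Irgm2 reached 40.4, 20.3, 96.9 and 3.99 CPM in LTearly, against 8.46, 2.76, 10.5 and 1.90 in wtGMP. LTearly replicates 1 to 3 lay above all wtGMP libraries, and replicate 4 within them. It rose by 2.72 ± 0.80 on the log2 scale (adjusted p = 0.0247). It no longer passed when LTearly replicate 3 (1.82, adjusted p = 0.0718), wtGMP replicate 2 (2.49, 0.0765) or wtGMP replicate 4 (2.43, 0.0742) was left out, nor without the low-count filter (adjusted p = 0.055). In LTlate it was at 5.30, 6.62 and 13.2 CPM and in BMTGMP at 16.6, 4.93 and 17.0, which overlap wtGMP. Reads were divided with other loci in at least 1 library for 14 of the 33 members. This was so in 15 of 15 libraries for Eif2ak2, 13 for Xaf1, 11 for Irgm2 and 10 each for Igtp, Gbp3 and Oas1a, whose levels are uncertain in that respect.

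Igtp, another immunity-related GTPase, was at 25.9, 15.2, 154 and 5.51 CPM in LTearly, at 15.7, 1.92 and 11.5 in LTlate, at 11.1, 5.19 and 11.7 in BMTGMP and at 18.4, 11.4, 7.63 and 13 in wtGMP. Replicate 3 of LTearly was 5.94-fold above the highest of the other libraries, and the groups overlapped. The log2 fold change of LTearly over wtGMP was 1.97 ± 0.92 (adjusted p = 0.158).

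Iigp1 was at 0.979, 0, 36.0 and 2.46 CPM in LTearly, at 0 in all 3 LTlate libraries, at 1.86, 2.59 and 1.26 in BMTGMP and at 0.860, 7.09, 0 and 1.27 in wtGMP. A count of 0 allows levels of up to 0.202 to 0.261 CPM in the LTlate libraries (3 counts per library, counting error only), and wtGMP replicate 3 was at 0 as well. Against wtGMP, Iigp1 was at least 21.0-fold lower in LTlate, with 3 counts over the group as the floor (adjusted p = 0.0388). The bound was 8.81-fold without wtGMP replicate 2, which held 18 of the 28 wtGMP counts, and 12.9-fold without LTlate replicate 4. It was the 1 member called in that comparison, where 7.5% of all genes were called higher and 3.26% lower. The call was lost without wtGMP replicate 2 (adjusted p = 0.117) and without any one of the 3 LTlate libraries (adjusted p = 0.104 to 0.126), and with summed transcripts (0.0765) or M2grLT3 counted as LTlate (0.137). Iigp1 had no value with only both groups in the fit or with counts thinned to the lowest total. Ifi47, the last of the GTPases, was lower in every LTlate library (1.060 to 6.71 CPM) and in every BMTGMP library (1.67 to 5.71) than in wtGMP (10.5 to 24.4). Its log2 fold changes of -1.78 ± 0.85 and -2.10 ± 0.87 did not pass (adjusted p = 0.201 and 0.179). LTearly replicates 1, 2 and 4 were below wtGMP as well (1.96 to 6.45 CPM), and replicate 3 was above it (44.0).

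**Figure D3:**
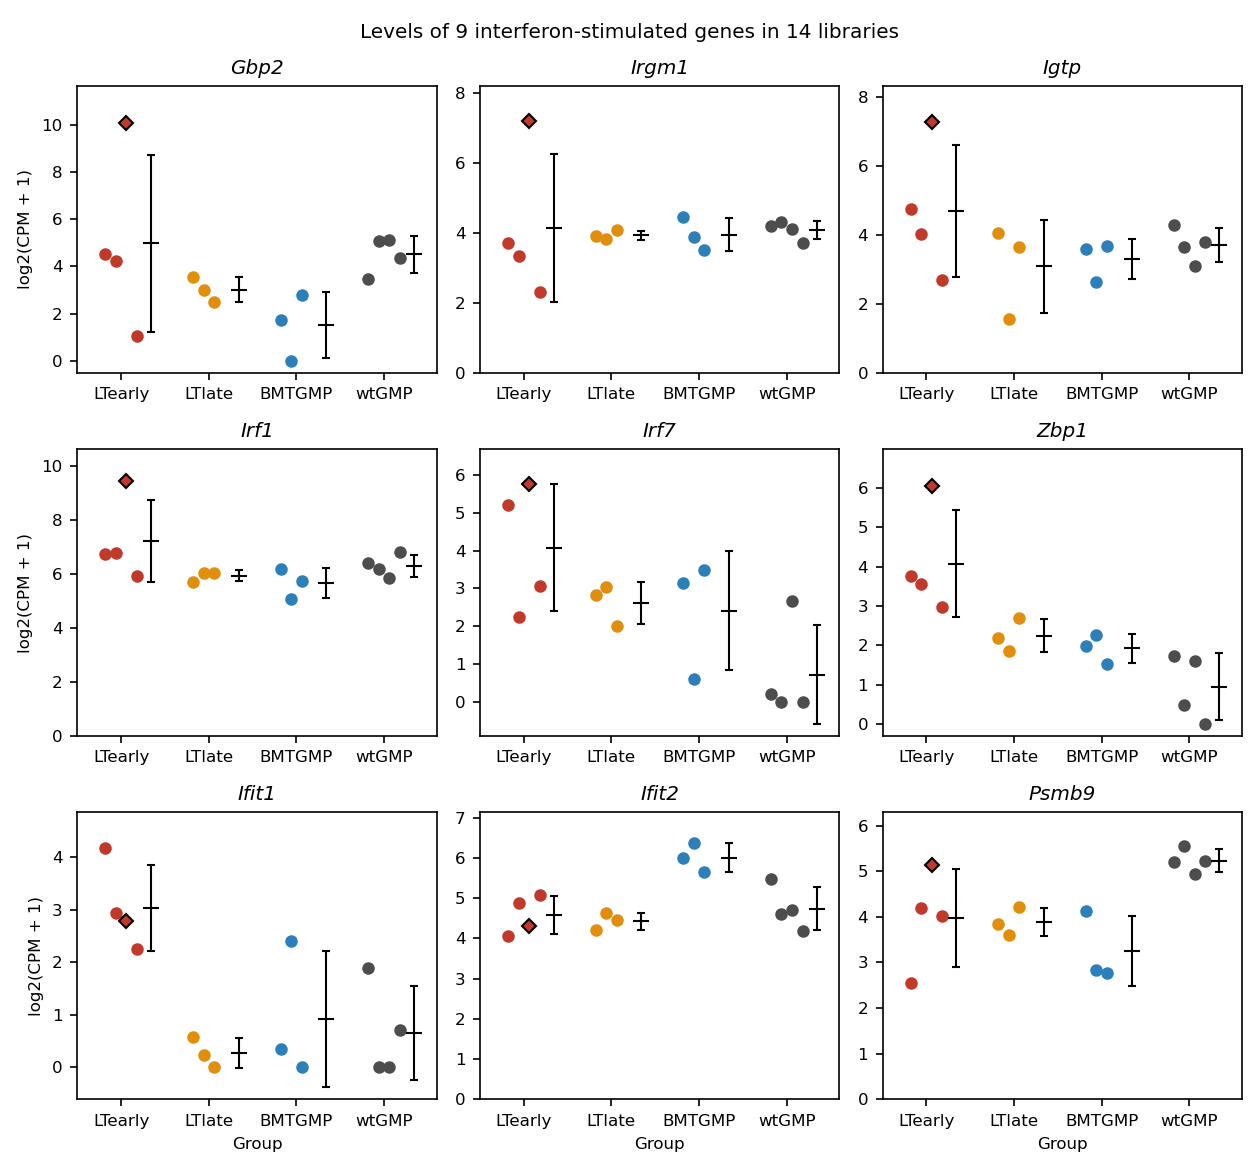
Level of 9 members as log2(CPM + 1), 1 point per library, in LTearly, LTlate, BMTGMP and wtGMP from left to right. LTearly replicate 3 is the black-edged diamond, and the line and bar beside each group are the mean and SD over its libraries (n = 4, 3, 3 and 4). Gbp2, Irgm1, Igtp, Irf1, Irf7 and Zbp1 have the diamond at the top, Ifit1 and Ifit2 do not, and Psmb9 is highest in wtGMP.

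Among the transcription factors, Irf1 stood at 108, 108, 700 and 59.7 CPM in LTearly, at 51.2, 65.3 and 65.5 in LTlate, at 72.2, 32.9 and 52.3 in BMTGMP and at 84.2, 71.7, 57.0 and 112 in wtGMP. Replicate 3 of LTearly was 6.24-fold above the highest of the others, and the other 13 libraries spanned 32.9 to 112 CPM. LTearly differed from wtGMP by 1.58 ± 0.70 on the log2 scale (adjusted p = 0.141). With DESeq2 the adjusted p was 0.0479.

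Irf7, which amplifies type I interferon production, was at 36.2, 3.73, 53.2 and 7.39 CPM in LTearly, at 6.12, 7.23 and 2.97 in LTlate, at 7.81, 0.519 and 10.3 in BMTGMP and at 0.143, 0, 5.38 and 0 in wtGMP. The 3 lowest wtGMP libraries held 0 or 1 counts, and LTearly overlapped wtGMP through its replicate 2. Irf7 rose by 4.10 ± 1.32 on the log2 scale in LTearly (adjusted p = 0.0406). The adjusted p was 0.0646 to 0.0917 when LTearly replicate 1 or 3, or wtGMP replicate 1, 2 or 4, was left out. It was 0.0866 without the low-count filter, 0.0521 with only both groups in the fit and 0.0779 with summed transcripts. Without wtGMP replicate 3, the 1 library of that group with more than 1 count, wtGMP was under the floor of 3 counts. The fold change of 8.09 in that fit (adjusted p = 0.000346) therefore has no firm size. In LTlate and BMTGMP the changes of 1.90 ± 1.30 and 2.08 ± 1.31 did not pass (adjusted p = 0.413 and 0.418). Irf9, the DNA-binding partner of Stat2, ranged from 31.2 to 109 CPM in LTearly, 23.8 to 32.8 in LTlate, 30.8 to 56.5 in BMTGMP and 16.1 to 54.6 in wtGMP, and was not called in any of the 6 comparisons between groups.

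Of the 10 antiviral effectors, Zbp1 was called in LTearly and Ifit2 in BMTGMP. Zbp1, a sensor of Z-form nucleic acids that triggers cell death, stood at 12.5, 10.7, 65.0 and 6.80 CPM in LTearly, at 3.51, 2.61 and 5.47 in LTlate, at 2.98, 3.76 and 1.88 in BMTGMP and at 2.29, 0.394, 2.02 and 0 in wtGMP. All 4 LTearly libraries lay above every library of the other groups, and all 3 LTlate libraries above every wtGMP library. Zbp1 rose by 4.20 ± 0.90 on the log2 scale in LTearly over wtGMP (adjusted p = 0.00109), and by 3.0 with an adjusted p of 0.0786 without LTearly replicate 3. Against LTlate the difference was 2.60 ± 0.91 (adjusted p = 0.281) and against BMTGMP 3.02 ± 0.94 (adjusted p = 0.0509).

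Ifit1 and Zbp1 were the 2 members whose LTearly libraries all lay above all wtGMP libraries, and 0 lay all below, where 11.5% and 10.3% of all genes did so. Ifit1, which binds foreign RNA caps, was at 17.1, 6.66, 5.87 and 3.75 CPM in LTearly, at 0.489, 0.174 and 0 in LTlate, at 0.279, 4.28 and 0 in BMTGMP and at 2.73, 0, 0 and 0.633 in wtGMP. Its replicate 1 was the highest of LTearly, and replicate 3 was no higher than replicate 2. The log2 fold change of LTearly was 3.22 ± 1.70 over wtGMP (adjusted p = 0.185) and 5.14 ± 2.09 over LTlate (adjusted p = 0.362).

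Ifit2, of the same family, followed another order. It reached 63.1, 81.8 and 49 CPM in BMTGMP, against 43.3, 23.2, 25.4 and 17.1 in wtGMP, and stood at 15.7, 28.2, 18.7 and 33 in LTearly and 17.5, 23.7 and 21.1 in LTlate. Every BMTGMP library was above every library of the other groups. Ifit2 rose by 1.24 ± 0.35 on the log2 scale in BMTGMP over wtGMP (adjusted p = 0.0278), and the log2 fold changes of LTearly and LTlate over BMTGMP were -1.43 ± 0.35 (adjusted p = 0.0129) and -1.64 ± 0.38 (adjusted p = 0.0167). The rise was not called without wtGMP replicate 2, 3 or 4 or BMTGMP replicate 1 or 2 (1.02 to 1.26, adjusted p = 0.066 to 0.189), nor with the replicate block (0.0601). Leaving out BMTGMP replicate 2 also ended the calls against LTearly (adjusted p = 0.0811) and LTlate (adjusted p = 0.11), and the LTlate one was lost without any one LTlate library (adjusted p = 0.0538 to 0.131) and with the replicate block (0.0619).

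Oasl2, a member of the oligoadenylate synthetase family, was at 20.3, 3.73, 69.4 and 6.22 CPM in LTearly, at 0.408, 0 and 0.338 in LTlate, at 8.09, 1.04 and 10.5 in BMTGMP and at 6.45, 3.54, 0 and 7.60 in wtGMP. All LTlate libraries lay below all LTearly and all BMTGMP libraries. Oasl2 differed by 6.51 ± 1.53 on the log2 scale between LTearly and LTlate (adjusted p = 0.0888 with edgeR and 4.52e-05 with DESeq2) and by -4.03 ± 1.40 between LTlate and wtGMP (adjusted p = 0.0798 and 0.00858). Oas1a, which makes the second messenger of RNase L, was higher in every BMTGMP library (19.5 to 21.6 CPM) than in wtGMP (0.449 to 13.2) without passing the test (1.98 ± 0.71, adjusted p = 0.0993).

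The remaining antiviral effectors and the ISG15 system passed in no comparison. Eif2ak2, the RNA-activated kinase that halts translation, lay between 81.8 and 172 CPM in all 14 libraries. Isg15, a ubiquitin-like modifier, was at 7.59, 0.266, 8.07 and 0.352 CPM in LTearly, at 1.71, 0.0871 and 1.28 in LTlate, at 1.02, 8.56 and 0 in BMTGMP and at 0.143, 0.394, 0 and 0.95 in wtGMP. Its LTearly libraries fell in a high and a low pair, with 3.44 ± 2.01 on the log2 scale over wtGMP (adjusted p = 0.24). Usp18, which removes Isg15 from proteins, was at 3.18, 0, 12.8 and 0 CPM in LTearly and at 0 in 3 of 4 wtGMP libraries. Ifit3, Mx2, Rsad2 and Bst2 did not exceed 12.7 CPM in any library. The RNA sensor Ifih1 ranged from 34.6 to 114 CPM in LTearly and from 19.5 to 41.3 in wtGMP (1.03 ± 0.39, adjusted p = 0.0646), and its relative Dhx58 from 10.3 to 14.5 in LTearly and from 8.27 to 16.2 in wtGMP.

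Of the 3 genes of peptide processing, Psmb8 and Psmb9 fell in BMTGMP. Psmb9, a subunit of the immunoproteasome that cuts peptides for MHC class I, was at 16.7, 6.09 and 5.86 CPM in BMTGMP, against 36.1, 46.5, 29.8 and 36.4 in wtGMP, and at 4.89, 17.3, 34.5 and 15.3 in LTearly and 13.5, 11.2 and 17.6 in LTlate. Every BMTGMP and LTlate library was below every wtGMP library, and of LTearly only replicate 3 reached the wtGMP range. In BMTGMP over wtGMP Psmb9 fell by 1.95 ± 0.52 on the log2 scale (adjusted p = 0.0189). Without wtGMP replicate 2, or BMTGMP replicate 2 or 4, the adjusted p was 0.056, 0.098 and 0.101.

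Psmb8, another immunoproteasome subunit, was at 117, 32.8 and 51.1 CPM in BMTGMP, against 191, 240, 314 and 132 in wtGMP, and at 71.9, 115, 214 and 120 in LTearly and 107, 134 and 137 in LTlate. BMTGMP was below wtGMP throughout, while LTlate overlapped wtGMP and LTearly did so through its replicate 3 alone. Psmb8 fell by 1.71 ± 0.46 on the log2 scale in BMTGMP (adjusted p = 0.0443). The call was lost without wtGMP replicate 1, 2 or 3 or BMTGMP replicate 2 or 4 (adjusted p = 0.0561 to 0.244), and also without the low-count filter (0.0865), with a filter of 1 CPM (0.0565), with only both groups in the fit (0.0689) and with the replicate block (0.0525). Tap1, the peptide transporter, was at 13.7 to 59.5 CPM in BMTGMP and 62.15 to 74.3 in wtGMP (-1.02 ± 0.50, adjusted p = 0.277). Its LTlate libraries also lay below wtGMP (41.84 to 62.03 CPM), as did LTearly replicates 1, 2 and 4 (40.1 to 56.5), while LTearly replicate 3 was at 159. In this comparison of BMTGMP with wtGMP, 1 of 33 members was called higher and 2 lower, where 4.4% and 2.16% of all genes were. DESeq2 called 1 higher and 2 lower (all genes 6.82% and 4.27%), and 5 had an unadjusted p under 0.05 (all genes 19.6%). Members whose libraries did not overlap numbered 2 above and 6 below, against 10.9% and 8.32% of all genes.

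Cxcl10, the chemokine that draws T cells, was at 18.8 CPM in LTearly replicate 1 and at most 5.07 CPM in every other library. Parp9 and Parp14, interferon-induced ADP-ribosyltransferases, reached 145 and 247 CPM in LTearly replicate 3, against 34.6 to 61.9 and 46.0 to 66.1 in wtGMP. Parp14 was also high in LTearly replicate 1 (203.8 CPM), and was at 51.15 and 44.8 in replicates 2 and 4. Parp9 was 1.14 ± 0.36 higher on the log2 scale in LTearly than in LTlate, with no overlap (adjusted p = 0.212). Xaf1, an antagonist of an apoptosis inhibitor, was at 12.5, 2.13, 47.0 and 7.39 CPM in LTearly and 0 to 6.06 in wtGMP (2.41 ± 0.89, adjusted p = 0.0546). Ifi44 and Ifi27l2a did not exceed 8.56 CPM in any of the 14 libraries.

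**Figure D4:**
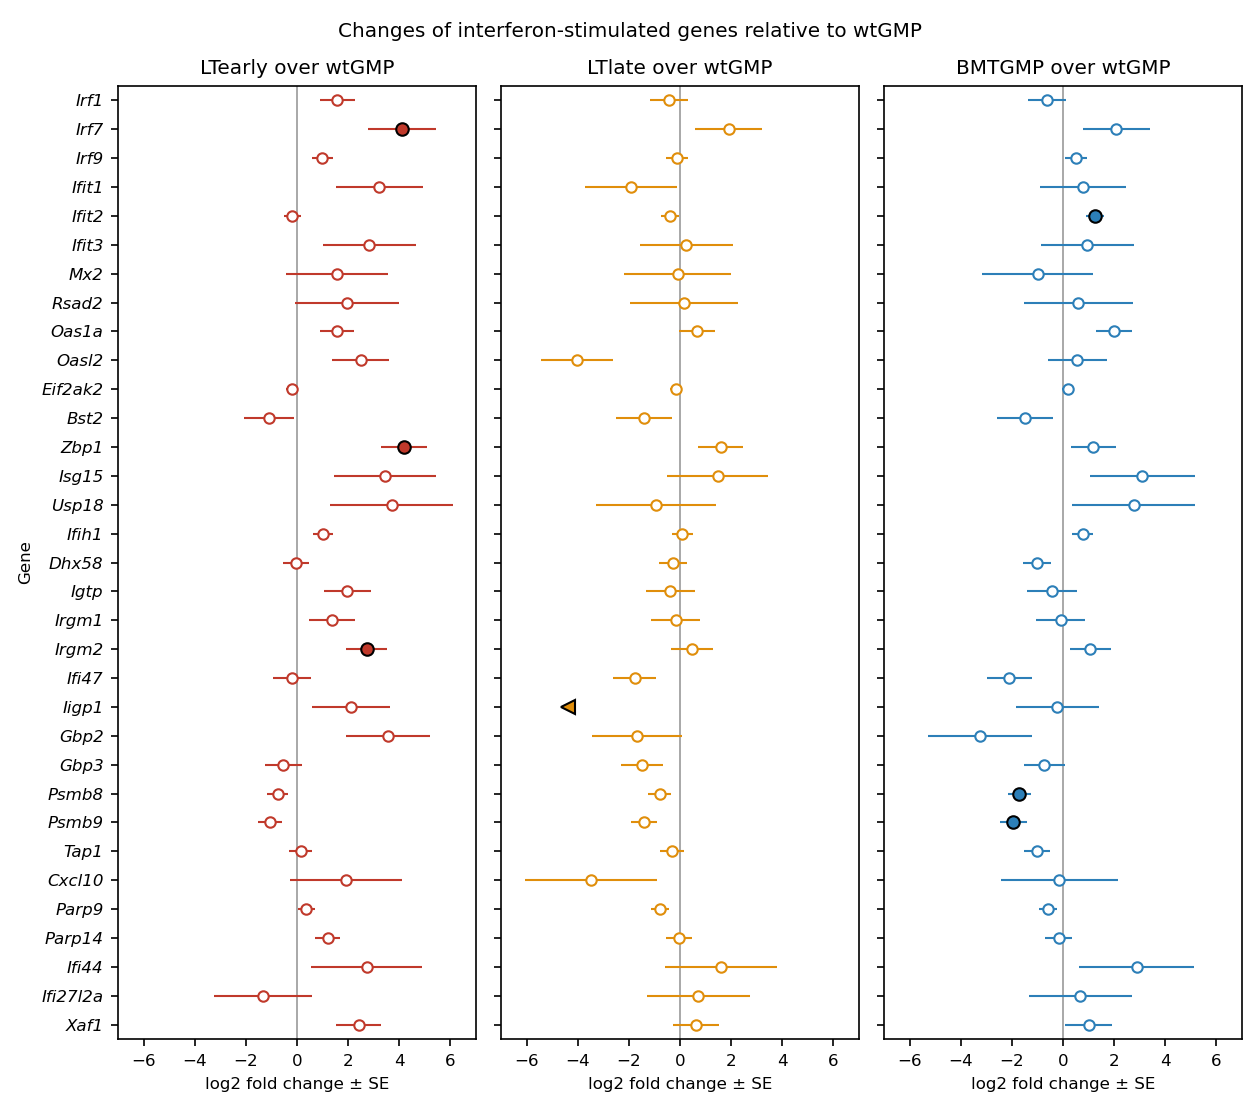
The log2 fold change (± SE) of each of the 33 genes over wtGMP in LTearly, LTlate and BMTGMP, from left to right, with filled points where edgeR's adjusted p was under 0.05. The triangle for Iigp1 in LTlate marks the bound of at least 21.0-fold lower. Called genes were Irf7, Zbp1 and Irgm2 in LTearly, Iigp1 in LTlate, and Ifit2, Psmb8 and Psmb9 in BMTGMP.

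The median log2 fold change over the 33 was -0.27 in LTlate over wtGMP (all genes 0) and 0.19 in BMTGMP over wtGMP (all genes 0.07). DESeq2 called 0 members higher and 2 lower in LTlate (all genes 10.2% and 6.62%), and 5 had an unadjusted p under 0.05 (all genes 24%). In LTlate 1 member lay wholly above wtGMP and 4 wholly below, against 15.1% and 10.9% of all genes. All 3 MLL-AF9 groups are set against the same wtGMP libraries. LTearly over LTlate had a median of 1.57 (all genes 0.11) with 31 of 33 positive, but edgeR called 0 members in either direction, where 0.117% of all genes were called higher and 0.0893% lower. There 12 members had an unadjusted p under 0.05 (all genes 11.9%), and DESeq2 called 2 higher, Oasl2 and Iigp1, and 0 lower (all genes 1.4% and 0.619%). Without LTearly replicate 3 that median was 0.61 (all genes 0.09). Members wholly above numbered 4 (Ifit1, Oasl2, Zbp1 and Parp9) and wholly below 0, against 4.51% and 5.67% of all genes.

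LTearly over BMTGMP had a median of 1.35 (all genes 0.1), with 0 members called higher and 1, Ifit2, called lower, where 3.39% and 2.8% of all genes were. DESeq2 called 4 higher and 1 lower (all genes 7.21% and 3.99%), and 9 had an unadjusted p under 0.05 (all genes 19.9%). Without LTearly replicate 3 the median was 0.49 (all genes 0.07), and Gbp3 and Eif2ak2 were called lower besides Ifit2, where 308 of 14541 genes were. Zbp1 and Dhx58 lay wholly above BMTGMP and Ifit2 wholly below, against 7.78% and 7.79% of all genes. LTlate over BMTGMP had a median of -0.37 (all genes -0.06), and again Ifit2 alone was called lower and 0 higher, against 0.46% and 1.52% of all genes. DESeq2 called 0 higher and 3 lower (all genes 3.04% and 1.54%), and 3 had an unadjusted p under 0.05 (all genes 12%). There 0 members lay wholly above and 6 wholly below (Ifit2, Oas1a, Oasl2, Iigp1, Gbp3 and Xaf1), against 10.8% and 9.65% of all genes.

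Upstream of the members, interferon genes themselves were almost without reads. The 21 ligand genes in the table summed to 1.47 to 11 CPM in LTearly, 1.08 to 3.51 in LTlate, 0.186 to 3.89 in BMTGMP and 0 to 4.33 in wtGMP, and 0 of them passed the filter on low counts. Of 11 receptor and signalling genes 6 rose in LTearly over wtGMP, 3 in LTlate and 1 in BMTGMP, where 11.2%, 7.5% and 4.4% of all genes were called higher and 8.96%, 3.26% and 2.16% lower. These shares stand behind the counts of the further lists as well. Without LTearly replicate 3 the count in LTearly was 3 of 11, Ifnlr1 and Jak1 among them, where 1450 of 14541 genes were called higher.

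Stat2, which acts with Irf9 in type I interferon signalling, rose by 1.22 ± 0.31 on the log2 scale in LTearly over wtGMP (adjusted p = 0.00553) and was at 46.0, 42.1, 97.3 and 38.1 CPM in LTearly, against 28.8, 21.7, 27.2 and 17.4 in wtGMP. The kinases Jak1 and Jak2 rose by 0.89 ± 0.17 (adjusted p = 0.000241) and 0.67 ± 0.19 (adjusted p = 0.0103). The calls of Stat2 and Jak2 were lost without LTearly replicate 3.

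Of the receptor chains, Ifngr2 rose by 0.94 ± 0.31 on the log2 scale in LTearly (adjusted p = 0.0336), a call that was lost without LTearly replicate 1, 2 or 3. Ifnar1, Ifnar2 and Ifngr1 differed from wtGMP by 0.47 ± 0.24, -0.03 ± 0.21 and 0.10 ± 0.19 in LTearly (adjusted p = 0.162, 0.949 and 0.78) and were called in no comparison. Ifnlr1, the chain specific to type III interferon, was at 47.2, 31.2, 31.2 and 19.0 CPM in LTearly, 5.94 to 13.9 in LTlate and 9.59 to 11.3 in BMTGMP, against 1 count in all of wtGMP. The ratio of pooled counts of LTearly over wtGMP was 500 (95% interval 89.3 to 19774, counting error only), with an adjusted p of 2.2e-08. Socs1, the feedback inhibitor of the receptors, was not tested, and with 0 counts in wtGMP it was at least 10.8-fold higher in LTearly and 4.29-fold in LTlate. Socs1 was at 0, 1.60, 6.24 and 1.52 CPM in LTearly, at 0.816, 0 and 1.28 in LTlate and at 2.51, 0.130 and 0 in BMTGMP, so each of these groups has a library at 0 and overlaps wtGMP. The bounds were 6.63-fold in LTearly without its replicate 3 or 6.38-fold without wtGMP replicate 1, and 2.41-fold in LTlate without its replicate 4 or 2.55-fold without wtGMP replicate 1. In BMTGMP 27 of its 28 counts came from replicate 1, and no fold is given.

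Of 10 negative regulators tested, 4 rose in LTearly over wtGMP, 3 in LTlate and 1 in BMTGMP. Irf4, a lymphoid and myeloid factor of the Irf family, had 0 counts in wtGMP and was at least 34.7-fold, 12.6-fold and 24.1-fold higher in LTearly, LTlate and BMTGMP (20.6-fold, 7.46-fold and 14.3-fold without wtGMP replicate 1). Ptpn6, a phosphatase of Jak kinases, rose by 1.06 ± 0.16 in LTearly (adjusted p = 2.36e-05) and by 1.05 ± 0.17 in LTlate (adjusted p = 9.54e-05). Among 18 genes of nucleic acid sensing, 4 rose, among them Irf5, Tlr8 and Tbk1, and 1 fell in LTearly. The one that fell was Sting1, the adaptor of cytosolic DNA sensing, by 2.14 ± 0.47 (adjusted p = 0.00134). In BMTGMP 2 fell, Unc93b1 and Irf8, a factor of monocyte and dendritic cell fate (-2.33 ± 0.50, adjusted p = 0.0119).

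A further list of 58 tested interferon-stimulated genes, none of them a member, gave 14 higher and 1 lower in LTearly over wtGMP (all genes 11.2% and 8.96%), 8 and 1 in LTlate (7.5% and 3.26%) and 8 and 1 in BMTGMP (4.4% and 2.16%). The highest of the 14 libraries was LTearly replicate 3 for 41 of the 58 (70.7%, against 14.8% of all genes). Without that library 11 were higher and 3 lower in LTearly, as were 1450 and 1147 of 14541 genes. Samd9l, a brake on growth in myeloid cells, was at 406, 292, 405 and 210 CPM in LTearly, at 100, 140 and 132 in LTlate, at 70.3, 111 and 107 in BMTGMP and at 10.5, 19.3, 21.8 and 8.55 in wtGMP. The groups LTearly, LTlate and wtGMP did not overlap, and neither did LTearly and BMTGMP. Samd9l rose by 4.46 ± 0.30 in LTearly, 3.05 ± 0.30 in LTlate and 2.69 ± 0.30 in BMTGMP over wtGMP (adjusted p = 4.99e-10, 2.59e-07 and 2.11e-06). It was also the 1 gene of this list called higher in LTearly than in LTlate (1.40 ± 0.29, adjusted p = 0.0387).

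Slfn2, a Schlafen family gene that keeps immune cells quiescent, was at 679, 542, 998 and 398 CPM in LTearly, at 495, 373 and 236 in LTlate, at 200, 285 and 132 in BMTGMP and at 47.3, 32.3, 49.8 and 37.7 in wtGMP. It rose over wtGMP by 3.96 ± 0.34, 3.13 ± 0.34 and 2.29 ± 0.33 on the log2 scale in LTearly, LTlate and BMTGMP (adjusted p = 1.05e-06, 2.02e-05 and 0.000433). Samd9l and Slfn2 stood above wtGMP in every library of the 3 groups, and not in LTearly replicate 3 alone. Sp100 and Sp140, nuclear body proteins, were also higher in each of the 3 comparisons, by 1.60 to 2.01 and 1.84 to 2.65 on the log2 scale. Of 16 further MHC class I genes 1 fell in LTearly, 1 in LTlate and 2 in BMTGMP, where 8.96%, 3.26% and 2.16% of all genes were called lower. Without LTearly replicate 3, 4 fell in LTearly, where 1147 of 14541 genes did. H2-K1, a classical class I heavy chain, fell by 1.01 ± 0.22, 0.80 ± 0.24 and 1.14 ± 0.24 on the log2 scale in the 3 groups over wtGMP (adjusted p = 0.00124, 0.0267 and 0.00255).

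The genes that stood out most in LTearly replicate 3 were ranked by their fold over the highest of the other 13 libraries. Of the top 50, 6 were members (12% of the 50 and 18.2% of the 33): Gbp2, Irgm1, Irf1, Igtp, Zbp1 and Iigp1. Another 10 came from the further list (20% of the 50 and 16.1% of its 62 genes in the table). Named from this ranking, after their values were seen, Gbp8, Gbp4, Gbp10 and Gbp6 followed Gbp2, at 99.5, 156, 65.7 and 117 CPM. The other 13 grouped libraries held at most 3.73, 8.08, 5.38 and 10.5 CPM. The top 50 of LTearly replicate 1 held 2 members, Mx2 and Cxcl10, and 0 of the further list.

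Markers of other cells were set beside LTearly replicate 3, which held the highest level of 14.8% of all genes. Its 11 monocyte and macrophage markers summed to 5671 CPM, against 1200 to 1868 in the other 3 LTearly libraries, 1381 to 2115 in LTlate, 527 to 1160 in BMTGMP and 680 to 806 in wtGMP. None was at 0 and 6 of 11 were higher there than in all other 13 libraries. The protease gene Ctss, which interferon also induces, made up 4399 CPM of that sum, against 651 to 1082 in the other LTearly libraries. Dendritic cell markers summed to 155 CPM, against 131 to 136, with 2 of 10 above all other 13 libraries (Siglech at 20.2 CPM, against at most 5.19) and Klk1, Spib and Zbtb46 at 0. T and NK cell markers summed to 23.5 CPM, against 7.74 to 18.4, with 3 of 8 above all other 13 libraries (Cd3g at 4.04 CPM, against at most 1.82) and Ncr1 and Klrb1c at 0. B cell markers summed to 25 CPM, against 12.9 to 14.4, with 2 of 7 above all other 13 libraries and Pax5 and Vpreb1 among those at 0. Late neutrophil markers summed to 26321 CPM, against 13021 to 25983, with none at 0 and 8 of 12 above all other 13 libraries, such as Mmp8 at 1064 CPM, against at most 260.6, and Cxcr2 at 429 CPM, against at most 86.05. From the dendritic markers on, the ranges are those of the other 3 LTearly libraries. Dendritic sums were 125 to 192 CPM in LTlate, and T and NK sums 19 to 24.2 in wtGMP. LTearly replicate 3 was thus not the highest library for either sum. Erythroid markers summed to 12.1 CPM, against 0 to 15.2, with 2 of 6 above all other 13 libraries. GMP markers summed to 2460 CPM, against 1885 to 7131, with 0 of 11, and LT-HSC markers to 181, against 54.9 to 191, with 1 of 8. The part of these cells in the levels of the members was not tested.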

How the data were processed

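Per the labels' protocols, RNA (PicoPure) from sorted bone marrow cells was made into libraries with a low-input ScriptSeq kit. Per the file headers, the authors counted reads on mm9 over RefSeq transcripts, keeping up to 100 hits per read. The submitters' processing notes list Bowtie 0.9.9.1. The authors deposited each value in the unit of expected counts, without scaling for depth or length, and 13.75% of values are not whole (tolerance 1e-06), since reads with several hits are divided.

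Of 28847 transcripts, 26092 were matched to a symbol, 25973 through RefSeq and 119 through GENCODE. Transcripts without a gene held 3.5% to 4.2% of counts. Each of 20453 genes was given its transcript with the highest mean, rounded to a whole number. Among 15 libraries 0 of 105 pairs had identical counts. Of 16 value columns, 1 matched no sample and was not used.

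The 14 grouped libraries entered 1 fit of group means in edgeR 4.0.16 (R 4.3.3): TMM scaling, the filterByExpr filter, robust quasi-likelihood test, adjusted p under 0.05, SE as the fold change (log2) divided by the root of F. Levels for spread are log2 CPM with a prior count of 2. Floors are 3 counts over the group unless stated per library, intervals are exact binomial at 95%, and both cover counting error only. Values in every library are given for members called in any comparison and for the 6 with the largest LTearly spread among those averaging at least 5 CPM. Of each pathway list up to 4 genes with the smallest p are named, besides Ifnar1, Ifnar2, Ifngr1, Ifngr2, Stat2 and Socs1, and some genes of these lists are not reported here. Irf1, Ifit1, Isg15 and the members given by range or a few values were chosen after their values were seen. The members and lists were chosen with earlier results of these data known. Alternatives were DESeq2 1.42.0, other scaling, filters, samples in the fit, transcript sums, thinning, a replicate block, M2grLT3 added to either group and each library left out. Counts in pathway lists without single LTearly libraries, and bounds without single libraries, were added after seeing the data. The steps were tested on simulated data.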

Additional observations from a re-analysis of the deposited data

Results flagged for a closer look

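A library was picked out here where, among 4 libraries of a group, it lay farther from the nearest other one than Dixon's test allows at its 95% level for the group's whole range, and chance gives this in about 1 in 20 groups of normally distributed values. CPM values are skewed and the rule picks out more: over all 14553 genes tested it gave a highest library for 9.67% in LTearly and 14.9% in wtGMP, against 15 and 5 of the 33 members. LTearly replicate 3 was picked out as the highest for 11 members (2.95% of all genes): Gbp2 (1075 CPM, nearest 21.8), Irf1 (700, nearest 108), Gbp3 (486, nearest 85.4), Eif2ak2 (172, nearest 92.3), Tap1 (159, nearest 56.5), Igtp (154, nearest 25.9), Irgm1 (146, nearest 12), Parp9 (145, nearest 50.9), Zbp1 (65, nearest 12.5), Ifi47 (44, nearest 6.45) and Iigp1 (36, nearest 2.46). LTearly replicate 1 was picked out for Cxcl10 (18.8 CPM, nearest 0.367), Mx2 (12.7, nearest 1.17) and Ifi44 (8.56, nearest 1.41), and LTearly replicate 4 for Ifi27l2a (2.23, with the others at 0). Of these members, Parp9 also had wtGMP replicate 2 below its group (34.6 CPM, nearest 59.9).

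In wtGMP the others rest on few counts: Irf7 (5.38 CPM, nearest 0.143), Ifit3 (2.47, nearest 0.317) and Usp18 (1.12, others at 0) were highest in replicate 3, Rsad2 (4.33, others at 0) in replicate 2 and Cxcl10 (5.07, others at 0) in replicate 4.

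The library M2grLT3, in no comparison, held 3 members at more than 2-fold the highest wtGMP library with at least 10 counts: Zbp1 at 14.6 CPM, Xaf1 at 13.4 CPM and Usp18 at 4.1 CPM.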

How the results depend on the processing

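The counts of members called moved with the settings. With DESeq2, whose shares over all genes are given above, they were 8 for LTearly over wtGMP (3 with edgeR), 2 for LTlate over wtGMP (1), 2 for LTearly over LTlate (0), 5 for LTearly over BMTGMP (1) and 3 for LTlate over BMTGMP (1). With only the groups compared in the fit they were 5 for LTlate over wtGMP, 5 for BMTGMP over wtGMP (3) and 2 for LTlate over BMTGMP. Over all genes those fits called 1503 higher and 983 lower of 11723, 694 and 521 of 11286, and 319 and 135 of 12613. Iigp1 had no value in the first of these fits. Without the low-count filter the counts of members were 1 for LTearly over LTlate and 2 for LTearly over BMTGMP, and median-ratio scaling gave 2 for the last as well. Over all genes these were 51 higher and 90 lower of 19789, 478 and 453 of 19789, and 573 and 332 of 14553. Summed transcripts and thinning to 2469869 counts each gave 0 for LTlate over wtGMP, and thinning 2 for LTearly over BMTGMP. Over all genes, summed transcripts called 1060 higher and fewer lower of 14633 for LTlate over wtGMP. Thinning called 1103 higher and 547 lower of 11854 there, and 572 and 435 for LTearly over BMTGMP. Counting M2grLT3 as LTearly gave 5 over wtGMP and 2 over BMTGMP. Over all genes, 1702 were then called higher and 1501 lower of 15244 over wtGMP, and 554 and 500 over BMTGMP. Leaving out 1 library at a time gave 1 to 8 members for LTearly over wtGMP, 0 to 3 for LTlate over wtGMP, 0 to 3 for BMTGMP over wtGMP, 0 to 1 for LTearly over LTlate, 0 to 4 for LTearly over BMTGMP and 0 to 2 for LTlate over BMTGMP. Those fits tested 13671 to 16316 genes. In the same order they called 1306 to 1667 genes higher and 1033 to 1516 lower, 731 to 947 and 186 to 387, and 506 to 584 and 181 to 303. For the last 3 comparisons these were 3 to 67 and 1 to 131, 303 to 627 and 244 to 643, and 123 to 244 and 32 to 67. For LTearly over BMTGMP the count of members was 0 without BMTGMP replicate 2, 3 without BMTGMP replicate 1, and 2, 3 and 4 without LTearly replicates 2, 3 and 4. For LTearly over LTlate it was 1 without LTearly replicate 4, for LTlate over wtGMP 0 without wtGMP replicate 2 or any LTlate library and 3 without wtGMP replicate 3, for BMTGMP over wtGMP 0 without replicate 2 of either group and 1 without BMTGMP replicate 4, and for LTlate over BMTGMP 0 without BMTGMP replicate 2 or any LTlate library and 2 without BMTGMP replicate 1. The median member SD within LTearly was 1.105 to 1.484 with 1 library left out. The cause was not tested, beyond the smaller sample or gene sets that some settings have by construction.

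For the single members called, 110 of 153 alternative values kept the call, 43 lost it and 0 reversed direction. The 153 leave out Iigp1 with only both groups in the fit and after thinning, where it had no value. Libraries with the same replicate number did not deviate together (18 pairs, r from -0.094 to 0.069, against -0.111 to 0.11 in 55 pairs of other numbers). This check was made for the number and not for the title marks. Sharing grLT3, LTearly replicate 3 and LTlate replicate 2 gave 0.072. Sharing grD2, LTearly replicate 1 and LTlate replicate 3 gave -0.008. With the replicate block the counts of members were 1 for BMTGMP over wtGMP (577 genes higher and 284 lower of 14553) and 0 for LTlate over BMTGMP (240 and 61). Adjusted p was then 0.0601 for Ifit2 and 0.0525 for Psmb8 in BMTGMP over wtGMP. Isg15, Usp18 and Rsad2 rest on few counts in most libraries, which limits the precision of their levels.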

Other observations

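In the library M2grLT3, titled LTearly but with a column named LTlate, Gbp2 was at 11.5 CPM, Irf1 at 169, Irf7 at 7.55, Zbp1 at 14.6, Irgm2 at 14.4, Gbp3 at 63.3, Psmb9 at 10.2 and Samd9l at 258. Of the 33 members, 13 were above all 4 wtGMP libraries and 7 below all of them, as were 29.6% and 23.5% of all genes tested.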
